A study of Mus musculus with 6 samples.

Results

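The comparison described here set macrophages grown from mouse bone marrow with M-CSF and given interleukin-6 (IL6) for 24 h against macrophages grown with GM-CSF and given none. It uses 2 of the 6 libraries of the series, chosen by their labels, and asks where the 24 h library came near the GM-CSF library and where it did not. All mice were C57BL/6 and 8 weeks old, and marrow was cultured for 7 days with either growth factor, per the labels. The other libraries were uncultured marrow, M-CSF macrophages without IL6, and each macrophage type after 3 h of IL6. Each group had 1 library, and nothing in the labels says that the libraries came from separate cultures or animals. The pair differs in growth factor and in IL6 at the same time. The untreated M-CSF library is therefore set beside it for most genes and lists, and no GM-CSF culture with IL6 for 24 h was among the samples. The labels give 7 days for the M-CSF libraries with and without IL6, and whether the 24 h were part of these days is not stated here. No M-CSF culture was labelled as kept for the same 24 h without IL6, so IL6 and time in culture cannot be told apart. The IL6 dose, and whether the growth factor stayed in the medium, are not stated.

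GM-CSF acts through a receptor made of Csf2ra and Csf2rb, which activates Jak2 and the transcription factors Stat5a and Stat5b, and it drives marrow cells toward a state that shares genes with alveolar macrophages and dendritic cells. M-CSF acts through the receptor tyrosine kinase Csf1r and supports the resident type of macrophage, with complement, scavenger receptors and the transcription factor Maf. IL6 binds Il6ra, which joins the shared chain gp130 (Il6st) and activates Stat3, and the inhibitor Socs3 is a known target of that pathway.

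Levels are given as scaled CPM, counts divided by the size of the library (CPM) after a correction for its composition (TMM). With 1 library a side there is no replicate check and no p-value. Each ratio is given on the log2 scale as the first library named over the second, with an exact 95% interval. The interval comes from 1 library a side, so it covers counting error only and no variation between cultures. PCR copies of a molecule were not marked and cannot be removed, so it can be too narrow even for counting error. Genes called higher or lower, here and below, had a 2-fold ratio or more, an interval that left out equal levels, and 5 CPM or more in the library with more. In the pair, the interval condition removed no gene. Libraries held from 18511777 counts (M-CSF without IL6) to 24134374 (GM-CSF), with 21782750 in the 24 h library. Mitochondrial transcripts were 2.10% of the counts at 24 h and 3.15% in GM-CSF, and the 10 most abundant genes took 9.63% and 20.2%. In bulk RNA, fewer cells of a type and less RNA per cell cannot be told apart.

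Both libraries carried macrophage transcripts. Cd68, a lysosomal glycoprotein of macrophages, had 846 CPM at 24 h and 1016 in GM-CSF, and Lyz2, the myeloid lysozyme, had 20120 and 44295 (-1.14, and -0.84 with total counts). Adgre1, which encodes F4/80, was higher at 24 h, with 1114 CPM against 257. Of the 8 macrophage markers, 3 were higher and 1 lower, with a median log2 ratio of -0.08, which turned to 0.22 when libraries were scaled by total counts. Markers of other marrow cells were mostly near 0. The neutrophil genes Ly6g and Retnlg and the T cell genes Cd3e and Cd3g had no count in either library. The summed level of 14 mature neutrophil markers was 52.3 CPM at 24 h and 560 in GM-CSF, of which the collagenase Mmp8 made 513. The sums were 81.1 and 366 for 12 T and natural killer cell markers, where Il7r, the IL7 receptor, made 79.8 and 363. For 10 megakaryocyte markers they were 125 and 556, with Vwf, the clotting factor carrier, at 90.5 and 444. Neutrophil precursor markers summed to 1.29 and 5.01 CPM, those of eosinophils, basophils and mast cells to 9.30 and 68.8, erythroid ones to 9.38 and 6.62, B lineage ones to 81.9 and 32.5, stem and progenitor ones to 49.1 and 124, and stromal and endothelial ones to 34.5 and 58.1. Markers without a count numbered 2 of 14 for mature neutrophils in both libraries, and 8 of 12 at 24 h and 6 of 12 in GM-CSF for T and natural killer cells. Of 10 B lineage markers only Blnk reached 5 CPM, while 5 had no count at 24 h and 3 had none in GM-CSF. The part of such cells in the results was not tested.

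More genes were apart from GM-CSF at 24 h of IL6 than without it. Of 14719 genes analysed, 10573 reached 5 CPM in the 24 h or the GM-CSF library, and of these 1349 were higher at 24 h (12.8%) and 1207 lower (11.4%). For M-CSF without IL6 against GM-CSF, 907 of 10495 genes were higher (8.64%) and 1134 lower (10.8%). The 24 h library itself had 1186 of 10313 genes higher (11.5%) and 921 lower (8.93%) than M-CSF without IL6. Within 1.5-fold of GM-CSF lay 8047 of the analysed genes at 24 h (54.7%) and 8410 without IL6 (57.1%). Higher genes made 52.8% of the counted genes at 24 h, a share that became 68.5% when scaled by total counts, which shifts the median of all genes by 0.28, and 43.1% with upper-quartile factors. The comparisons with GM-CSF share that library, so their values are given side by side and no overlap between them is read.

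**Figure D1:**
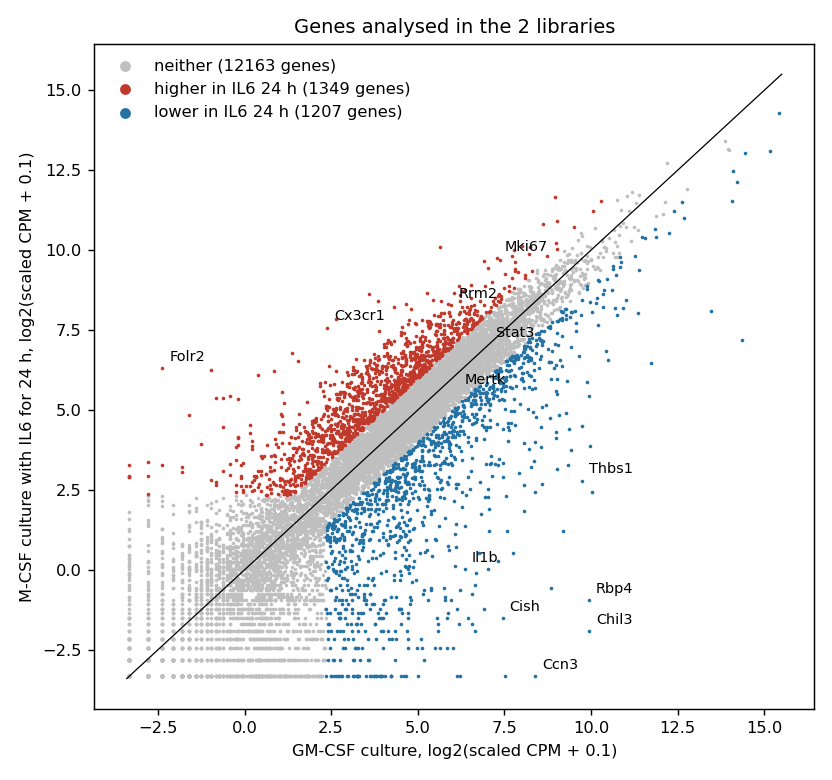
Each point is 1 of the 14719 genes analysed, with its log2(scaled CPM + 0.1) in the GM-CSF library (x axis) and in the M-CSF library with IL6 for 24 h (y axis); the line marks equal levels. The 1349 genes higher at 24 h are red and the 1207 lower are blue, with Folr2 far above the line and Chil3, Rbp4 and Ccn3 far below it.

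The libraries after 3 h of IL6 gave a set of genes that differed between the growth factors in libraries outside the pair, both given IL6. In M-CSF against GM-CSF at 3 h, 842 of 10449 genes were higher (8.06%) and 1108 lower (10.6%). Of the 842 genes higher in M-CSF at 3 h, 724 were also higher in M-CSF without IL6 than in GM-CSF (86.0%) and 11 lay within 1.5-fold (1.31%). At 24 h of IL6, 345 of these 842 were higher than in GM-CSF (41%), 275 lay within 1.5-fold (32.7%) and 40 were lower (4.75%). Their median log2 ratio to GM-CSF was 1.51 without IL6 and 0.76 at 24 h. Of the 1108 genes higher in GM-CSF at 3 h, 948 were lower in M-CSF without IL6 (85.6%) and 706 were lower at 24 h (63.7%). Within 1.5-fold lay 19 of the 1108 without IL6 (1.71%) and 188 at 24 h (17.0%), and 85 were higher than in GM-CSF at 24 h (7.67%). The median of the 1108 hardly differed, at -1.73 without IL6 and -1.75 at 24 h, while more of these genes lay near GM-CSF and more lay above it at 24 h. The set was selected for a 2-fold difference at 3 h, and most of it was also called without IL6. Few of its genes could therefore lie near GM-CSF without IL6, so the larger numbers near it at 24 h are a description.

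**Figure D2:**
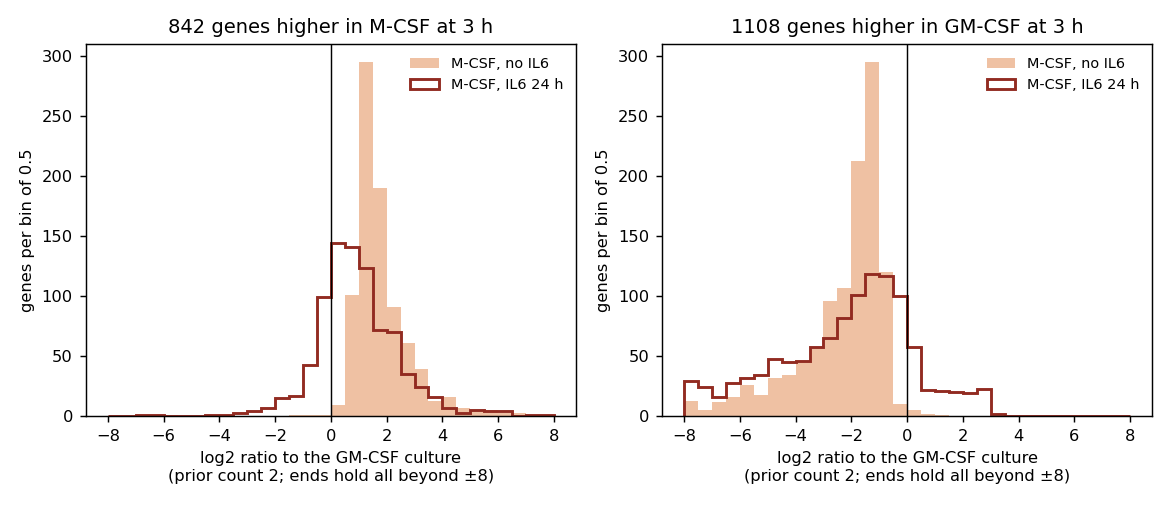
Histograms of the log2 ratio to the GM-CSF library (x axis, prior count 2) for the 842 genes higher in M-CSF at 3 h (left) and the 1108 higher in GM-CSF at 3 h (right), as genes per bin of 0.5 (y axis); filled bars are M-CSF without IL6 and the line is M-CSF with IL6 for 24 h. On the left the 24 h values sit nearer to 0, with a median of 0.76 against 1.51, and on the right they reach further to both sides.

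Gene lists moved in different ways against GM-CSF. The lists were chosen with earlier results of these data known, so their counts and medians are a description. List medians use a prior count of 2, and over all genes analysed the median was 0 for each comparison. The proliferation list was far above GM-CSF at 24 h and below it without IL6. Matrix, MHC class II, dendritic cell, receptor signalling, alternative activation and alveolar lists were below it, and complement and M-CSF identity lists above it. Interferon, chemokine, inflammatory and glycolysis lists were nearer to GM-CSF at 24 h, or below it where they had been above.

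**Figure D3:**
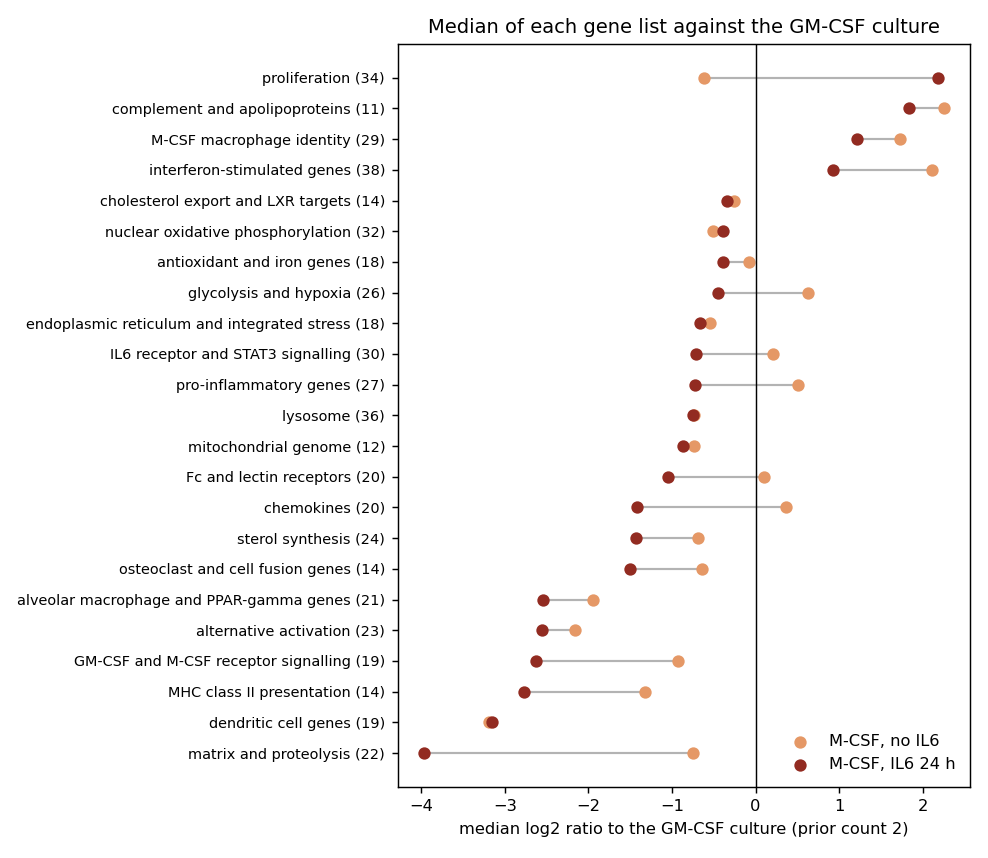
Median log2 ratio to the GM-CSF library (x axis, prior count 2) for each gene list (y axis, number of genes analysed in brackets), with pale points for M-CSF without IL6 and dark points for M-CSF with IL6 for 24 h. The proliferation list lies at -0.62 without IL6 and 2.18 at 24 h, and the matrix list at -0.75 and -3.97.

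Genes of GM-CSF receptor signalling were mostly lower at 24 h than in GM-CSF. Of 19 receptor signalling genes analysed, 13 were lower and 2 higher, with a median log2 ratio of -2.63, against 8 lower, 2 higher and a median of -0.93 without IL6. Cish, a SOCS family inhibitor induced by Stat5 (chromosome 9, 107296026 to 107302784, GRCm38), had 174 CPM in GM-CSF, 0.966 in M-CSF without IL6 and 0.249 at 24 h. Its log2 ratio at 24 h was -9.45 (-10.90 to -8.32), the furthest of this list. Socs2, a further Stat5 target (chromosome 10, 95385362 to 95417180), had 54.6, 2.09 and 0.457 CPM in the same order, and a ratio of -6.90 (-7.91 to -6.06). Both genes were thus low in every M-CSF library, and the GM-CSF library after 3 h of IL6 had 172 CPM of Cish and 60.8 of Socs2. Socs1, which inhibits JAK kinases, had 19.9 CPM in GM-CSF, 4.08 without IL6 and 0.789 at 24 h. Csf3r, the G-CSF receptor, and Csf1r were the 2 higher genes, Csf3r with 7.68, 45.1 and 33.5 CPM. The survival gene Bcl2a1d, of a family of near-identical copies whose counts are uncertain, had 133, 14.9 and 3.61.

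The promoter of Cish is shown because Cish marks Stat5 output and is almost absent at 24 h. The sequence is that of RefSeq, GRCm38.p6, chr9:107296409-107296708, plus strand, from 250 bases before to 50 bases after the start. Capitals mark matches to TTCNNNGAA, the STAT letters, which were searched on both strands and lie at bases 251 and 262 of the window without overlap.
Cish: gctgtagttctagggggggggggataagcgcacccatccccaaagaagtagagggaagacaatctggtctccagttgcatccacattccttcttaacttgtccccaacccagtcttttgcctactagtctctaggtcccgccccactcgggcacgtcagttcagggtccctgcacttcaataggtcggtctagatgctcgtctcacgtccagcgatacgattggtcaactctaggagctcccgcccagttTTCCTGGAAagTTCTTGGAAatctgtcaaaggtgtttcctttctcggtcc
These letters were found in 9.55% of the 27025 promoters of the same length and in 3 of the 15 promoters matched for the receptor signalling list (20.0%). A match describes the letters only.

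The receptors themselves kept the order set by the growth factor. Csf2rb, the signalling chain for GM-CSF (chromosome 15, 78325752 to 78353847), had 2628 CPM in GM-CSF, 592 in M-CSF without IL6 and 259 at 24 h, a log2 ratio of -3.34 (-3.38 to -3.30). Csf2ra, the binding chain (chromosome 19, 61223957 to 61228429), had 554, 280 and 229 CPM and a ratio of -1.27 (-1.32 to -1.23). Csf1r, the M-CSF receptor, went the other way with 1068, 3234 and 2363 CPM and a ratio of 1.14 (1.12 to 1.17). With total counts Csf2ra was just under 2-fold (-0.98), and with upper-quartile factors so was Csf1r (0.99). All M-CSF libraries were on the same side of the GM-CSF libraries for these receptors. Stat5b lay close to GM-CSF, with 67.4 CPM at 24 h against 57.2 (0.24), and Stat5a had 24.0 against 41.6 (-0.80). The levels of Stat5a and Stat5b in M-CSF without IL6 are not given here.

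The IL6 receptor parts were near to GM-CSF or above it, and the target Socs3 was far below it. Il6st (chromosome 13, 112464070 to 112510086) had 121 CPM at 24 h and 118 in GM-CSF, a ratio of 0.04 (-0.04 to 0.12). Stat3 (chromosome 11, 100885098 to 100939540) had 132 and 131 CPM, a ratio of 0.00 (-0.07 to 0.08). Il6ra (chromosome 3, 89864059 to 89913196) was higher, with 96.5 against 36.2 CPM (1.41, 1.30 to 1.53), and had 59.1 without IL6. Il6st and Stat3 were therefore near GM-CSF level at 24 h, with ratios of 0.34 and 0.30 when scaled by total counts. Their levels in M-CSF without IL6 are not given here, so whether they came near with IL6 is not shown. Socs3 (chromosome 11, 117966079 to 117970047) had 142 CPM in GM-CSF, 102 in M-CSF without IL6, 99.3 after 3 h and 7.6 after 24 h, a ratio to GM-CSF of -4.22 (-4.45 to -4.01). Of 30 genes of IL6 and STAT3 signalling, 10 were lower at 24 h, among them Hp, the acute phase protein haptoglobin (0.540 against 74.2 CPM), Cebpb, a C/EBP transcription factor (22.0 against 136), and Gadd45g, a stress gene (10.1 against 51.7). Batf, an AP-1 family factor, had 2.82 against 17.5. Fos, an immediate early factor, and Il6ra were the 2 higher ones, and the list median was -0.71 against 0.21 without IL6. Fos (1.01) was under 2-fold with DESeq2 size factors (0.96) and upper-quartile factors (0.85), which left 1 higher gene.

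Most genes of alternative activation and of alveolar macrophages were lower at 24 h than in GM-CSF. Of 23 alternative activation genes, 16 were lower and 2 higher at 24 h, with a median of -2.55, against 14 lower, 3 higher and -2.16 without IL6. Chil3, the chitinase-like protein Ym1 (chromosome 3, 106147554 to 106167564), had 982 CPM in GM-CSF and 859 in GM-CSF after 3 h of IL6. It had 0.215 in M-CSF without IL6 and 0.166 at 24 h, a ratio of -12.53 (-14.41 to -11.17), the lowest of the pair among genes with a count in both libraries. Mgl2, a galactose-type lectin, had 72.1 CPM in GM-CSF, 1.13 without IL6 and 0.208 at 24 h. Arg1, arginase 1, which was named after its values were seen, had 101, 5.64 and 0.623. Ear2 had 64.2, 0.107 and 0.083 CPM, and Rnase2a had 25.1 CPM in GM-CSF and no count in either M-CSF library named, at least 202-fold lower at 24 h against 3 counts. Both are eosinophil-type ribonucleases of a multigene family, so reads may be split among copies. Folr2, folate receptor beta (chromosome 7, 101839988 to 101857194), stood at the other end of the list with 78.9 CPM at 24 h, 19.4 without IL6 and 0.092 in GM-CSF (9.74, 7.89 to 12.79). Cd163, the haemoglobin scavenger receptor, had 57.0, 29.5 and 10.2 CPM, so both genes were further from GM-CSF at 24 h than without IL6.

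Among 21 alveolar macrophage and PPAR-gamma genes, 15 were lower and 1 higher at 24 h (median -2.54), against 14 lower and 1 higher without IL6 (-1.94). Plet1, a surface protein of placenta and alveolar macrophages, had 56.9 CPM in GM-CSF and 0.083 at 24 h. Car4, carbonic anhydrase 4, had 19.1 and 0.125. Atp6v0d2, a subunit of the proton pump, had 847 CPM in GM-CSF, 28.9 without IL6 and 22.6 at 24 h (-5.23, -5.35 to -5.10). These genes were low in every M-CSF library. Olr1, the receptor for oxidised LDL, was different, with 69.4 CPM in GM-CSF, 63.3 in M-CSF without IL6 and 0.332 at 24 h. Abcg1, which exports cholesterol, came nearer to GM-CSF, with 376, 16.3 and 145 CPM, though it stayed lower (-1.38, -1.44 to -1.32). Marco, a scavenger receptor, was the higher gene with 18.7 CPM at 24 h against 7.17 in GM-CSF and 14.7 without IL6.

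Dendritic cell genes and MHC class II genes were low at 24 h. Of 19 dendritic cell genes, 12 were lower and 1 higher, with a median of -3.15, close to that without IL6 (-3.19, with 10 lower and 1 higher). Ccl17, a chemokine of dendritic cells, had 184 CPM in GM-CSF, 0.107 without IL6 and no count at 24 h, at least 1474-fold lower against 3 counts. Ccr7, the receptor for migration to lymph nodes, had 20.2, 0.215 and 0.0415 CPM. Ccl22 had 86.8, 9.18 and 0.249, and the ratio of -8.44 (-9.89 to -7.32) at 24 h was wider than that of -3.24 without IL6. Clec9a, a receptor for dead cells, had 15.7, 0.107 and 0.166. The exception was Cd207, the Langerhans cell lectin, with 9.67 CPM at 24 h, 7.41 without IL6 and 0.092 in GM-CSF. Itgax, which encodes CD11c and was named after its values were seen, had 994 CPM in GM-CSF, 26.1 without IL6 and 14.7 at 24 h.

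Of 14 MHC class II presentation genes analysed, 10 were lower at 24 h, 4 were neither and none was higher. With total counts 1 was higher. The median was -2.77 (-2.55 with the gene that had no count set at its bound), against -1.32 and 7 lower genes without IL6. H2-Ab1, a class II beta chain, had 514 CPM in GM-CSF, 281 in M-CSF without IL6 and 45.1 at 24 h (-3.51, -3.60 to -3.42). H2-Aa, its partner alpha chain, had 508, 209 and 47.8 CPM (-3.41, -3.50 to -3.32). H2-DMa, which loads peptide, had 126, 27.9 and 9.92, and H2-DMb2 had 20.6, 1.5 and 0.457. The ratios to GM-CSF of these genes were wider at 24 h than without IL6, and Ciita, the master activator of the class II genes, named after its values were seen, had 45.2, 17.5 and 8.01 CPM. H2 genes have close relatives, so reads may be shared among them.

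Lectin and Fc receptors were split between the growth factors. Of 20 such genes, 9 were lower and 5 higher at 24 h, with a median of -1.05 against 0.10 without IL6. Clec4n, which encodes dectin-2, had 1051 CPM in GM-CSF, 26.7 without IL6 and 5.27 at 24 h (-7.64, -7.90 to -7.39), and Clec7a, which encodes dectin-1, had 1428, 128 and 93.9 CPM (-3.93). Fcgr2b, the inhibitory Fc receptor, had 505, 84.8 and 19.9. Clec12a, an inhibitory lectin, was on the other side with 11.9 CPM in GM-CSF, 329 without IL6 and 399 at 24 h (5.07, 4.89 to 5.25). Fcrls, an Fc receptor-like gene, had 21.5, 47.7 and 63.8 CPM. Clec4a1, a lectin of a family with close copies, had 2.02, 107 and 47.2, and its relative Clec4a3 had 8.09, 23.5 and 20.2.

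More genes of the M-CSF type of macrophage were above GM-CSF at 24 h than below it. Of 29 M-CSF identity genes, 16 were higher, 6 lower and 7 neither, with a median of 1.21, against 17 higher, 7 lower and 1.73 without IL6. Cx3cr1, the fractalkine receptor (chromosome 9, 119901616 to 120069879), had 5.15 CPM in GM-CSF, 388 without IL6 and 191 at 24 h (5.21, 4.94 to 5.50). Hmga2, a chromatin protein, had 1.2, 137 and 67.5 CPM, and Cd300ld4, of the CD300 receptor family, had 0.644, 52.1 and 42.9. Cx3cr1 and Hmga2 each had a log2 ratio of -1.02 at 24 h to M-CSF without IL6, yet both stayed far above GM-CSF. Hmga2, Cd300ld4 and Folr2, all of this list, were also among the 12 highest ratios of the pair. The list was chosen with earlier results of these data known, so its counts are a description. Ly6c2, a monocyte antigen with a near-identical copy, was among the lower genes with 47.7 CPM in GM-CSF, 0.376 without IL6 and 0.208 at 24 h. Axl, a receptor for dying cells, had 469, 187 and 116 CPM. F13a1, a clotting factor subunit of monocytes, had 11.7, 2.15 and 1.12.

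Complement and apolipoprotein genes showed 6 higher and 2 lower of 11 at 24 h (median 1.84), against 7 higher and 1 lower without IL6 (2.26). C1qa and C1qc, chains of the first complement component, had 263 and 688 CPM at 24 h, 246 and 667 without IL6, and 50.9 and 130 in GM-CSF. Apoe had 3237 CPM at 24 h, 4690 without IL6 and 499 in GM-CSF (2.70, 2.67 to 2.73). C1qa, C1qc and Apoe stayed above GM-CSF at 24 h, on the same side as in the untreated M-CSF library. C3, the central complement component, had 159 CPM at 24 h, 503 without IL6 and 571 in GM-CSF (-1.85, -1.90 to -1.79). Cfb, of the alternative complement pathway, had 2.70, 10.4 and 34.4 CPM and a ratio of -3.67.

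Some genes that differed by growth factor without IL6 were within 1.5-fold of GM-CSF at 24 h. They were selected for this pattern, from genes counted at 3 h and without IL6 in the same direction, so their values are a description. Of the 20 genes named, 8 stayed within 1.5-fold under every other scaling and with GM-CSF after 3 h as reference, and 12 left it under at least 1 of these. Of the genes above GM-CSF without IL6, Fosl1, an AP-1 subunit (chromosome 19, 5447547 to 5455946), had 28.5 CPM in M-CSF without IL6, 26.4 after 3 h, 0.581 at 24 h and 0.506 in GM-CSF. Jag1, a Notch ligand, had 284, 250, 19.5 and 14.0 CPM in that order, and the monocyte attractant Ccl7 had 138, 118, 8.84 and 11.1. The log2 ratios to GM-CSF at 24 h were 0.20 (-1.05 to 1.48), 0.48 (0.27 to 0.69) and -0.33 (-0.60 to -0.06). In each case the 3 h value was close to that without IL6. Against GM-CSF after 3 h, Jag1 (0.85), Ccl7 (-0.64), Egln3 (-1.02), Lpar1 (1.73) and Ifit1bl1 (0.93) were outside 1.5-fold, and with total counts so were Jag1 (0.78) and Lpar1 (0.63). Oaf was outside it with DESeq2 size factors (-0.61) and upper-quartile factors (-0.72). Egln3, a hypoxia-induced prolyl hydroxylase, had 11.9 CPM without IL6, 1.08 at 24 h and 1.15 in GM-CSF, and Lpar1, a lysophosphatidic acid receptor, had 11.9, 1.45 and 1.15. Gja1, a gap junction protein, had 22.0, 2.99 and 2.94 CPM, and Carmil1, a regulator of actin capping, had 108, 12 and 14.8. Oaf had 12.2, 0.747 and 1.10.

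From below, Mertk, a receptor for dying cells (chromosome 2, 128698956 to 128802894), had 7.68 CPM without IL6, 9.79 after 3 h, 48.2 at 24 h and 71.2 in GM-CSF (-0.56, -0.67 to -0.45). Klhl24, a Kelch-like ubiquitin ligase adaptor, had 10.2, 10.7, 103 and 74.3 CPM (0.47, 0.37 to 0.56). Abcd2, a fatty acid transporter of peroxisomes, had 2.79, 2.81, 19.3 and 23.3 (-0.27, -0.46 to -0.09). Again the 3 h value lay with the untreated M-CSF library. Trp53inp1, a p53 target, had 9.83 CPM without IL6, 53.8 at 24 h and 51.5 in GM-CSF, and the BH3-only gene Bmf had 4.73, 23.0 and 23.9. Fam214a had 0.805, 17.1 and 13.1 CPM, Zranb3, a DNA translocase, 11.6, 67.2 and 79.1, and Ulbp1, an NKG2D ligand, 12.6, 98.6 and 72.8. Outside 1.5-fold were Fam214a against GM-CSF after 3 h (0.70) and with total counts (0.68), Klhl24 (0.76) and Ulbp1 (0.73) with total counts, Mertk with DESeq2 size factors (-0.61) and upper-quartile factors (-0.72), and Hook1 with the latter (-0.68). Hook1, a microtubule-binding protein, had 1.5, 8.18 and 11.8, and Pdk2, a kinase of pyruvate dehydrogenase, had 1.83, 8.55 and 11.5.

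**Figure D4:**
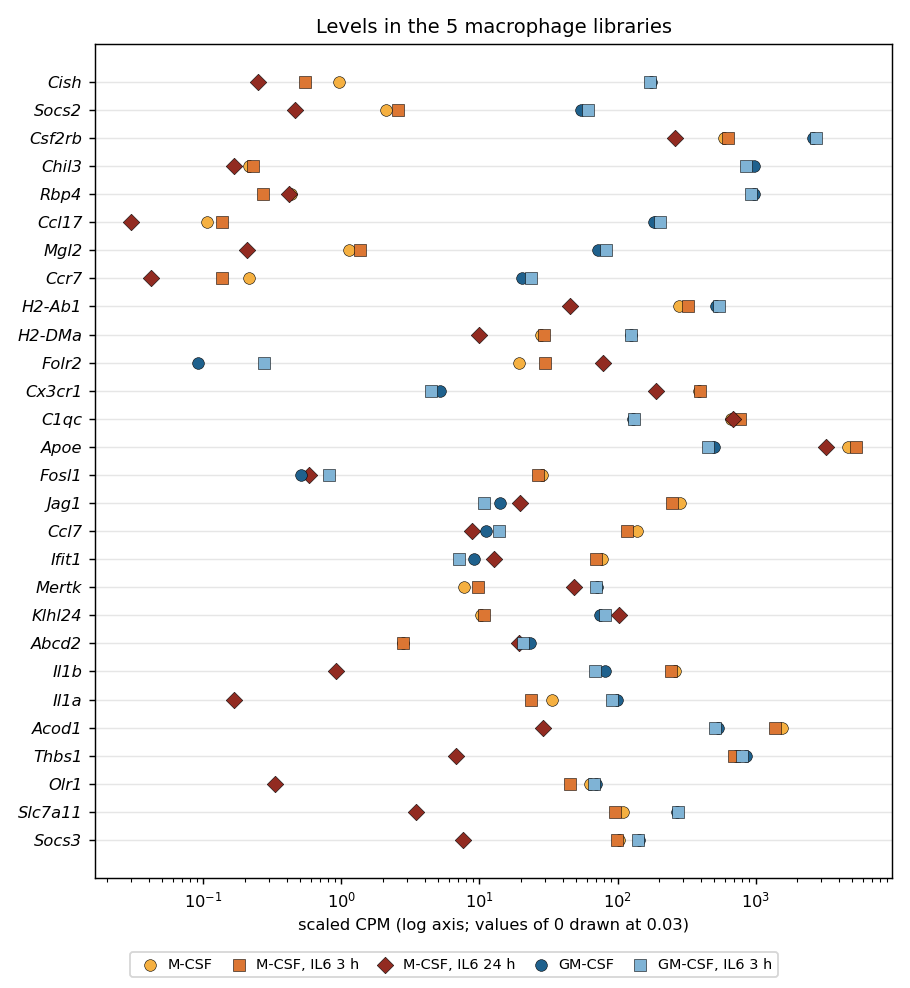
Scaled CPM (x axis, log scale, values of 0 drawn at 0.03) of 28 genes (y axis) in the 5 macrophage libraries, 1 point a library. Fosl1, Jag1, Ccl7, Ifit1, Mertk, Klhl24 and Abcd2 at 24 h (dark diamonds) lie nearer to the blue GM-CSF points than without IL6, while from Il1b down the 24 h point lies apart from all others.

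Interferon-stimulated genes were partly near to GM-CSF and partly still above it. Of 38 analysed, 31 were higher than in GM-CSF without IL6 and none was lower, with a median of 2.11. At 24 h, 16 were higher, 5 lower and the median was 0.93. Ifit1, which binds foreign RNA, had 77.3 CPM without IL6, 12.7 at 24 h and 9.15 in GM-CSF (0.48, 0.22 to 0.74), and its relative Ifit1bl1 had 11.3, 1.04 and 1.15. Oas2, an antiviral synthetase, stayed apart, with 65.3, 68.3 and 7.82 CPM (3.13, 2.90 to 3.36), as did Oas3 with 99.8, 126 and 16.2. Irf7, a transcription factor of the interferon response, had 64.0, 41.6 and 6.58, and Rtp4 had 79.1, 51.1 and 8.74. Ifit1 was within 1.5-fold of GM-CSF at 24 h, but not with total counts (0.77) or with GM-CSF after 3 h as reference (0.84), while Oas2 and Oas3 were at or above their level without IL6. Past GM-CSF went Mx1, an antiviral GTPase, with 38.9 CPM without IL6, 2.99 at 24 h and 9.11 in GM-CSF (-1.61, -2.02 to -1.21). Gbp2, a guanylate-binding protein, had 62.0, 11.7 and 47.4 CPM, and Gbp3 had 24.1, 7.35 and 21.4.

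Ifi205, of a family of DNA sensors with similar copies, had 16.7 CPM without IL6, 0.540 at 24 h and 5.52 in GM-CSF (-3.35, -4.30 to -2.53). Its promoter is shown because it had the widest ratio of this list among genes whose promoter holds the interferon response letters. It is from RefSeq, GRCm38.p6, chr1:174031706-174032005, minus strand, with capitals at matches to GAAANNGAA on either strand (bases 117 and 275 of the window, the latter on the opposite strand).
Ifi205: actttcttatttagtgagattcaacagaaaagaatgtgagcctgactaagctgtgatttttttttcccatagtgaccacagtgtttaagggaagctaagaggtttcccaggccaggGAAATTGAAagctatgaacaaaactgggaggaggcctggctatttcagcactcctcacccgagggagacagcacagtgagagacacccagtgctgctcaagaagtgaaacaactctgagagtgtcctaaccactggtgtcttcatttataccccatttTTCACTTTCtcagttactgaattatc
GAAANNGAA was in 9.76% of the 27025 promoters and in 19 of the 30 matched for the interferon list (63.3%). It was in 5 of the 12 promoters matched for the genes higher at 24 h and in 4 of the 4 for the lower ones. The 2 motifs can share the letters GAA where they overlap.

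Fewer inflammatory, chemokine and glycolysis genes were above GM-CSF at 24 h than without IL6, and more were below it. Of 27 pro-inflammatory genes, 12 were higher and 6 lower without IL6 (median 0.51), and 1 was higher and 12 lower at 24 h (-0.72). Il1b, interleukin-1 beta (chromosome 2, 129364570 to 129371139), had 260 CPM without IL6, 246 after 3 h, 0.913 at 24 h, 81.5 in GM-CSF and 68.4 in GM-CSF after 3 h. Its ratio to GM-CSF went from 1.67 without IL6 to -6.48 (-7.16 to -5.88) at 24 h. Acod1, which makes itaconate, had 1548, 1377, 28.9, 535 and 512 CPM in the same order (-4.21, -4.32 to -4.10). The 24 h library was thus the lowest of the 5 macrophage libraries for both. Il1a, interleukin-1 alpha, was below GM-CSF without IL6 already, with 33.5 CPM against 99.5, and had 0.166 at 24 h. Slc7a2, an arginine transporter, had 210 CPM without IL6, 13.4 at 24 h and 682 in GM-CSF. Cd38, an enzyme that consumes NAD, was low with M-CSF throughout, with 1.07 CPM without IL6 and 0.540 at 24 h against 41.2. Nfkbiz, an NF-kappaB cofactor, was the higher gene with 25.9 CPM at 24 h against 12.9 (1.01). It was under 2-fold with DESeq2 size factors (0.96), upper-quartile factors (0.85) and GM-CSF after 3 h as reference (0.93), so that no gene of the list was higher there.

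Of 20 chemokine genes, 7 were higher and 5 lower than in GM-CSF without IL6 (median 0.36), and 1 was higher and 10 lower at 24 h (-1.42). Cxcl3, a neutrophil attractant, had 31.8 CPM without IL6, 0.208 at 24 h and 95 in GM-CSF (-8.84, -10.46 to -7.61). Ccl6 was dominated by GM-CSF, with 239, 145 and 20973 CPM. Cxcl14 was the 1 chemokine still higher, with 422 CPM without IL6, 81.5 at 24 h and 16.9 in GM-CSF. Cx3cl1, the ligand of Cx3cr1, crossed from above to below, with 31.4, 1.99 and 10.3 CPM.

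Of 26 glycolysis and hypoxia genes, 10 were higher and none lower than in GM-CSF without IL6 (median 0.63), and 1 was higher and 6 lower at 24 h (-0.45). Vegfa, the vascular growth factor, had 260 CPM without IL6, 17.9 at 24 h and 67.4 in GM-CSF. Slc2a1, the glucose transporter, had 379, 52.4 and 203 CPM, and the hexokinase Hk2 had 216, 41.5 and 143. Pfkp, a phosphofructokinase, had 175, 101 and 298. Pdk1, a kinase that restrains pyruvate oxidation, remained higher with 58.3, 73.8 and 23.3 CPM. Other genes that were above GM-CSF without IL6 and below it at 24 h were Tgm2, transglutaminase 2 (2897, 201 and 1176 CPM), Chst11, a chondroitin sulfotransferase (483, 23.0 and 223), and Dusp5, a phosphatase of ERK (73.6, 3.07 and 35.8).

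A further group was alike with either growth factor and apart from GM-CSF only at 24 h. Its genes were selected for this pattern, so their values are a description. Thbs1, thrombospondin 1 (chromosome 2, 118111876 to 118127133), had 716 CPM in M-CSF without IL6, 696 after 3 h, 6.81 at 24 h, 847 in GM-CSF and 802 in GM-CSF after 3 h. The ratio at 24 h was -6.96 (-7.19 to -6.74), and the 4 other macrophage libraries lay close to each other. Mmp14, a membrane collagenase, had 309 CPM without IL6, 16.0 at 24 h and 335 in GM-CSF (-4.39), and Mmp13, a secreted one, had 76.0, 6.64 and 110 (-4.05). Hist1h1c, a linker histone, had 467, 9.63 and 639 CPM. Adora2a, an adenosine receptor, had 8.54, 0.208 and 10.2, the adaptor gene Abtb2 had 18.5, 0.706 and 19.8, and Maff, a small MAF factor, had 25.2, 1.37 and 20.0. Hilpda, a lipid droplet protein, had 38.4, 3.28 and 41.2. Socs3 and Olr1, described above, also met this rule.

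The matrix and proteolysis list had a median of -3.97 at 24 h, with 16 lower and 1 higher of 22, against 10 lower, 3 higher and -0.75 without IL6. F10, coagulation factor X, had 130 CPM in GM-CSF, 8.11 without IL6 and 0.913 at 24 h, and F7, factor VII, had 53.7, 2.79 and 0.581. Serpinb2, an inhibitor of plasminogen activators, had 11.1, 1.34 and 0.166. Col18a1, a basement membrane collagen, was the 1 higher gene, with 1.70 CPM in GM-CSF, 188 without IL6 and 74.4 at 24 h. Osteoclast and cell fusion genes had 7 lower and 1 higher of 14 (-1.5, against -0.64 without IL6), with Dcstamp, needed for fusion, at 68.1 CPM in GM-CSF, 11.1 without IL6 and 5.81 at 24 h. Tnfrsf11a, the receptor RANK, was higher with 17.5, 105 and 88.2.

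Sterol synthesis genes were lower at 24 h for 17 of 24 and higher for none (median -1.43), against 8 lower and -0.69 without IL6. Hsd17b7 had 72.1 CPM in GM-CSF, 71.0 without IL6 and 14.2 at 24 h, and Hmgcs1, an early enzyme of the pathway, had 309, 204 and 67.3. Mvd and Dhcr7 were low in M-CSF with or without IL6, with 23.6 and 25.7 CPM at 24 h, 26.5 and 15.9 without IL6, and 157 and 135 in GM-CSF. Of 14 genes of cholesterol export and LXR, 3 were lower and 2 higher (median -0.34, against -0.26). With so few genes, and 11.4% lower and 12.8% higher over all genes with 5 CPM, these counts are not read as a result about the list. Scd1, a fatty acid desaturase, had 187 CPM in GM-CSF, 10.9 without IL6 and 4.86 at 24 h. Scd2, its relative, had 463, 80.3 and 90.1 CPM, and Mylip, which targets the LDL receptor for degradation, was higher with 17.0, 33.1 and 36.8 but under 2-fold with upper-quartile factors (0.97), where 6 genes of the list were lower. Lysosomal genes differed little between M-CSF libraries, with 12 lower of 36 and a median of -0.75 at 24 h and of -0.74 without IL6. Ctsk, cathepsin K, had 114 CPM in GM-CSF, 8.86 without IL6 and 3.28 at 24 h, Acp5, the tartrate-resistant acid phosphatase, had 329, 18.3 and 10.5, and Psap, prosaposin, had 18906, 9017 and 4445.

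Slc7a11, the cystine transporter, was far below GM-CSF at 24 h, with 3.45 CPM against 270, and had 110 without IL6 (-6.29, -6.62 to -5.98). Srxn1, which repairs peroxiredoxins, had 103 CPM at 24 h, 377 in GM-CSF and 380 without IL6. Nqo1, a quinone reductase, had 5.27, 24.3 and 9.40, and Fth1, the ferritin heavy chain, had 8327, 22337 and 15649. Of 18 antioxidant and iron genes, 5 were lower and 1 higher (median -0.39, against -0.08), and the 1 higher was Slc40a1, the iron exporter, with 95.7 CPM at 24 h, 32.5 in GM-CSF and 11.4 without IL6. Among 18 genes of endoplasmic reticulum and integrated stress, 5 were lower and 1 higher (-0.66, against -0.55), including Trib3, a pseudokinase, with 4.73 CPM against 23.1, and Ddit3, the factor CHOP, with 10.7 against 22.9. Psat1, of serine synthesis, was the higher gene with 60.4 against 27.0. The lower genes of this list numbered 2 with total counts, where Ddit3 was under 2-fold (-0.80), and 8 with upper-quartile factors, and Psat1 was under 2-fold against GM-CSF after 3 h (0.92). Of 32 nuclear genes of oxidative phosphorylation, Ndufa1 of complex I was lower (19.0 against 55.7 CPM) and none was higher (3 lower with upper-quartile factors), with a median of -0.39 against -0.51. Of 12 genes of the mitochondrial genome, 5 were lower (-0.87, against -0.74), but none was when scaled by total counts or set against GM-CSF after 3 h of IL6. mt-Cytb had 3694 CPM in GM-CSF, 3082 in GM-CSF after 3 h, 1954 in M-CSF without IL6 and 1625 at 24 h.

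Proliferation genes were far higher at 24 h than in GM-CSF or in M-CSF without IL6. Of 34, 33 were higher at 24 h than in GM-CSF and none was lower, with a median of 2.18. Without IL6, 1 was higher and 11 were lower (-0.62), and against M-CSF without IL6, 32 were higher at 24 h (median 2.87). Tk1, thymidine kinase (chromosome 11, 117815526 to 117826092), had 22.0 CPM without IL6, 21.3 after 3 h, 195 at 24 h, 23.2 in GM-CSF and 22.6 in GM-CSF after 3 h (3.07, 2.94 to 3.21). Kif11, a motor of the mitotic spindle, had 20.5, 17.5, 205, 26.2 and 26.2 CPM in the same order. Bub1, a spindle checkpoint kinase, had 11, 10.6, 94.6, 14.3 and 15.8. In each gene the 24 h library stood above the 4 others, which lay close together. Tk1 and Kif11 also met the rule for genes alike with either growth factor and apart only at 24 h, so the likeness was selected. Rrm2, a subunit of ribonucleotide reductase, had 308 CPM at 24 h, 18 without IL6 and 62.3 in GM-CSF, and the marker Mki67 had 860, 126 and 157. Both were named after their values were seen. Ccnd1, cyclin D1, was different, with 569 CPM without IL6, 597 after 3 h, 300 at 24 h and 19.7 in GM-CSF, so that it was higher in every M-CSF library.

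**Figure D5:**
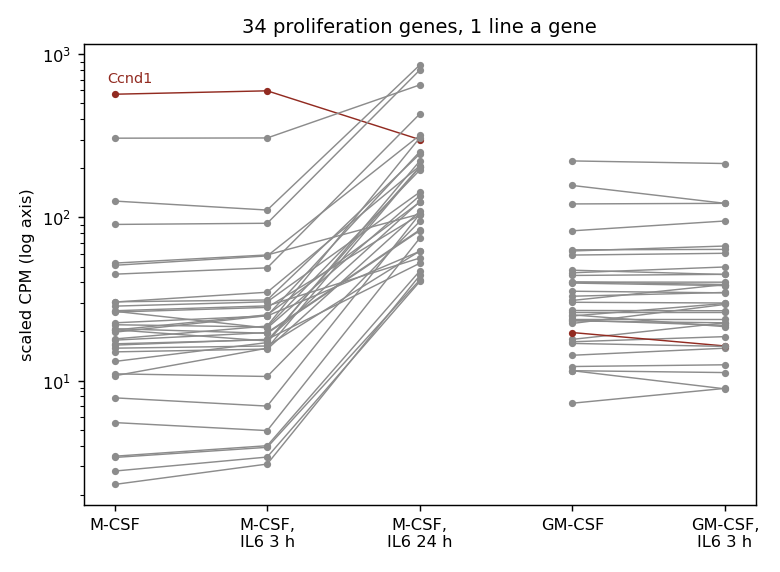
Scaled CPM (y axis, log scale) of the 34 proliferation genes in the 5 macrophage libraries (x axis), 1 line a gene, joined within a growth factor. All but Ccnd1 (red) are at their highest in M-CSF with IL6 for 24 h, and Ccnd1 is lower there, at 300 CPM, than without IL6.

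The 6 genes named here for crossing from below GM-CSF without IL6 to above it at 24 h were picked by their ratio to GM-CSF at 24 h. They were chosen for that pattern, so their values are a description. Esco2, which acetylates cohesin, had 2.42 CPM without IL6, 56.4 at 24 h and 5.89 in GM-CSF (3.26, 3.00 to 3.53). Pole, the catalytic subunit of a DNA polymerase, had 3.33, 94.3 and 12.3 CPM, and Brca1, a repair gene, had 6.28, 99.1 and 13.4. Clspn, of the replication checkpoint, had 7.41, 135 and 18.6, Brip1, a helicase, had 3.17, 56.4 and 7.59, and Ncaph, a condensin subunit, had 8.11, 124 and 17.0. All of these were closer to GM-CSF without IL6 than with it. Others were selected as alike with either growth factor and higher only at 24 h. Among them were Nanos1, an RNA-binding repressor (1.13, 23.2 and 1.01 CPM), and Ankle1, a nuclease (3.06, 29.5 and 2.90). Hpgd, which degrades prostaglandins, had 7.95, 58.5 and 6.99, and Cdkn2c, a CDK inhibitor, had 25.0, 143 and 19.6. Ercc6l had 6.71, 74.8 and 9.47, Slfn9 20.3, 175 and 22.7, Pbk 11.5, 83.4 and 11.2, and Knl1 10.7, 90.3 and 12.3.

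The genes with the widest ratios of the pair were mostly ones that were already apart without IL6. Both comparisons share the GM-CSF library and these genes were picked for their ratios, so this is a description. Rbp4, retinol-binding protein (chromosome 19, 38116629 to 38125281), had 976 CPM in GM-CSF, 0.430 without IL6 and 0.415 at 24 h (-11.20, -12.26 to -10.32). Ccn3, a matricellular protein (chromosome 15, 54745702 to 54754039), had 335 CPM in GM-CSF and no count in any M-CSF library, at least 2690-fold lower at 24 h against 3 counts. Ear6, a ribonuclease with near-identical copies, had 74.0 CPM in GM-CSF and none at 24 h, at least 594-fold lower. Inhba, a subunit of activin A, had 460, 6.01 and 0.581 CPM in GM-CSF, without IL6 and at 24 h. Il1r2, the decoy receptor for interleukin-1, was less far below GM-CSF without IL6, with 36.0, 4.51 and 0.0415, as was Upp1, uridine phosphorylase, with 49.9, 7.25 and 0.083. On the higher side, Pcp4l1 had 76.0 CPM at 24 h, 30.2 without IL6 and 0.414 in GM-CSF, Adra1a, an adrenergic receptor, had 28.6, 15.4 and 0.230, and Cacna1a, a calcium channel subunit, had 41.8, 20.4 and 0.460. Abcb4, a phospholipid transporter, had 41.3, 34 and 0.552. Col4a5, a collagen chain, Cd5l, a secreted macrophage protein, and Dmpk, a kinase, were higher at 24 h than in either reference, with 40.1, 15.2 and 109 CPM at 24 h, 5.53, 2.20 and 20.4 without IL6, and 0.782, 0.322 and 2.48 in GM-CSF. Zbed6 had 10.3 CPM at 24 h and 0.046 in GM-CSF but 3.82 in GM-CSF after 3 h of IL6, and it lies within another gene, so its ratio is uncertain.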

How the data were processed

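RNA from 6 mouse samples was sequenced, 1 library a group. The authors deposited a table of estimated counts per gene, which hold fractions of reads (from 24.7% to 27.7% of values are not whole), and a gene length column, which was not used. Per the submitters' processing notes, HISAT2, StringTie and DESeq2 were used with the build GRCm38; their versions, settings and the strand of counting are not stated there, so overlapping and antisense genes cannot be told apart. Counts were rounded. The 742 rows without a gene name (0.24% to 0.522% of counts) were left out; all 55536 others matched GENCODE M21, which gave positions. Genes with a CPM of 1 in any library (14719) received TMM factors from edgeR 4.0.16 in R 4.3.3. Intervals are exact Clopper-Pearson. A library with 0 counts gave a bound against 3 counts in that library. Promoters are RefSeq's, and 27025 genes had one.

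The members and gene lists were chosen with earlier results of these data known. Genes were named by a rule: the 12 widest ratios of the pair in each direction at 10 CPM or more, 10 per direction that came within 1.5-fold of GM-CSF, 10 per direction apart only at 24 h, 6 per direction that crossed over, up to 4 counted members a list and direction, and 11 receptor and signalling genes. Arg1, Itgax, Ciita, Mki67, Rrm2, Cd68 and Ly6g, Retnlg, Cd3e and Cd3g were named outside it, after their values were seen. Alternatives were other scalings, filters, levels and folds, the 3 h GM-CSF library as reference, and additive fits of all 6 libraries by edgeR's quasi-likelihood test and the DESeq2 1.42.0 Wald test, which assume that the lone 24 h library varies as the 3 h libraries do. The steps were tested on simulated data. Some named genes are not reported here.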

Additional observations from a re-analysis of the deposited data

How the results depend on the processing

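The 2556 counted genes of the pair (1349 higher, 1207 lower) numbered 4383 (2435 and 1948) at 1.5-fold and 1036 (427 and 609) at 4-fold, and 1940 were lower with a level of 1 CPM. The additive fits, whose calls have no fold limit and rest on 1 residual degree of freedom, gave 7575 genes by edgeR's quasi-likelihood test (3971 higher, 3604 lower) and 4138 by DESeq2 (1976 higher, 2162 lower), each at an adjusted p of 0.05. With total counts 2022 were higher and 928 lower. With the growth factor set at 4-fold, 151 of its M-CSF genes were higher and 10 lower, and 428 of its GM-CSF genes were lower and 4 higher. Of the 60 counts, 44 stayed within 1.5 times, among them those with total counts and the higher genes by DESeq2. Of 165 list medians under alternatives, 5 moved without changing sign and 1 reversed, that of the macrophage markers, which was 0.22 with total counts. Of 264 list counts 31 moved by over 1.5 times. Of 780 values for 195 named genes, 255 moved beyond their counting interval, 14 genes fell under 2-fold in at least 1 setting, and 1 called gene reversed: mt-Co2 had a log2 ratio of 0.24 against GM-CSF after 3 h of IL6. The cause was not tested. No paired analysis was possible because each group had 1 library, and for the same reason no replicate could be left out. Below about 5 CPM counting error limits the ratios.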
